A study of Mus musculus with 5 samples.

Results

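In 749 bins of 1 kb, both MethylCap eluates of mouse embryonic stem cells held at least 3-fold more DNA than the input, while the antibody to 5-methylcytosine (5mC) pulled down less than the input level. They were chosen from the reads themselves: a ratio of 3 or more in each eluate and below 1 with the 5mC antibody, in bins of chromosomes 1 to 19. The ratio was (RPM + 0.5)/(input RPM + 0.5), with RPM the read count of a bin scaled to the library's depth in megareads on chromosomes 1 to 19 and X. Of 2297452 autosomal bins with a read in any library, 56461 passed in both eluates (2.46%), and the 749 were 1.33% of these. Among the other captured bins, 31368 had a 5mC antibody ratio of 1 to 3 and 24344 a ratio of 3 or more. Below input with the 5mC antibody were 61.4% of all covered bins. These values defined the bins and are given as a description.

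DNA methylation in mammals is found mostly at CpG dinucleotides, and Tet dioxygenases oxidise 5mC to 5-hydroxymethylcytosine (5hmC), a base that is comparatively abundant in embryonic stem cells. MethylCap uses a methyl-CpG binding domain (MBD), which holds double-stranded DNA that carries several methylated CpGs, and salt releases densely methylated fragments last. MeDIP and hMeDIP instead use antibodies to the single modified base on denatured DNA, so that the assays read out methylation in different ways. MBD proteins of this kind are known to bind 5mC far better than 5hmC.

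The enriched libraries came from E14 clones of the SIGTR gene-trap library at passages 11 to 14, grown without feeders in fetal calf serum and leukaemia inhibitory factor. They were a MethylCap eluate at 600 mM NaCl, one at 800 mM NaCl, a MeDIP library with a Diagenode antibody to 5mC and an hMeDIP library with an Active Motif antibody to 5hmC. A different line, TNG-A, which derives from E14 and carries EGFP at the Nanog locus, supplied the chromatin input. There was 1 library per group, from 7507520 reads (800 mM eluate) to 18676265 reads (input) on chromosomes 1 to 19 and X, so that no test between conditions was possible. Intervals are exact 95% intervals for counting error only. All 4 enriched libraries are set against that single input, so its counting error enters each ratio. Any difference between the lines or the preparations enters too. It cannot be told apart from enrichment here, and the intervals do not cover it.

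Signal in these 749 bins was moderate and rested on few reads per bin. The 600 mM eluate had a median of 28 reads (13 to 343), the 800 mM eluate 20 reads (9 to 506), the 5mC antibody 2 reads (0 to 64), the 5hmC antibody 14 reads (0 to 82) and the input 6 reads (1 to 136). The summed reads of the 600 mM eluate were 9.16-fold over input (8.89 to 9.44) and those of the 800 mM eluate 8.46-fold (8.20 to 8.73). The median ratio per bin was lower, at 3.63 and 3.68, since 0.5 RPM is added above and below the line in each bin. The middle 50% of the bins lay between 3.22 and 4.45 at 600 mM and between 3.31 and 4.24 at 800 mM, so most were near the threshold. Captured bins with a 5mC antibody ratio of 3 or more were higher, at 14.3-fold and 14.1-fold.

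With the 5mC antibody the 749 bins held 1961 reads, 0.683-fold of input (0.648 to 0.720). In 53 bins (7.08%) there was no 5mC antibody read at all, against 17.8% of all covered bins. The ratios crowded below the limit of 1: 356 bins (47.5%) lay between 0.9 and 1, 291 between 0.75 and 0.9, 100 between 0.5 and 0.75, and 2 under 0.5. Their median 5mC antibody ratio was 0.8999, against 0.8984 over all covered bins. By this measure a typical bin of the 749 was near the level of all covered bins. In summed reads all covered bins were at 1.03-fold, but they include ratios of 1 or more, which the limit kept out of the 749. At this depth a single bin says little about absence. The interval of the raw 5mC antibody ratio lay wholly below the input level in 3 of the 749 bins and wholly below 3-fold in 293 (39.1%), and it included 3-fold in the other 456. These shares were not counted over all covered bins, so they have no background here. The 3 were on chromosome 4 at 44976001–44977000, with 0 reads of the 5mC antibody and 9 of the input, on chromosome 6 at 136435001–136436000, with 1 and 13, and on chromosome 9 at 122564001–122565000, with 0 and 13. They were picked after their values were seen.

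A choice on fewer reads was also measured in reads that had no part in it. When bins were called with the 5mC antibody and input reads at even start coordinates alone, 1559 bins met the rule, of which 353 were among the 749. Over these 1559 bins the remaining 5mC antibody reads, at odd coordinates, were 1.83-fold over the remaining input (1.76 to 1.90). This alternative was added after the data were seen. The 5hmC antibody was at 2.58-fold over the remaining input in the same bins (2.50 to 2.65). Most of these were other bins than the 749, and calling on fewer reads admits more bins. All 5mC antibody reads took part in the choice of the 749, so no held-out value exists for them.

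At the 5mC limit, bins inside and outside held similar reads of the 5mC antibody and the input. Just inside the 5mC limit, with a ratio of 0.997, were bins on chromosome 1 at 91647001–91648000 and 167632001–167633000, each with 5 reads of the 5mC antibody and 9 of the input. Just outside, at 1.01, were bins on chromosome 1 at 77707001–77708000 and chromosome 2 at 101740001–101741000, each with 4 and 7. With the 5hmC antibody the pair inside held 62 and 23 reads and the pair outside 5 and 7. Ties were taken in genome order, so these pairs are examples and show no trend across the limit. Summed, the 5hmC antibody was at 2.86-fold (2.71 to 3.01) over the 356 bins with a 5mC antibody ratio of 0.9 to 1. Over captured bins with a ratio of 1 to 3 it was at 3.61-fold. Nearest to the limit of 3 for the eluates were a bin on chromosome 2 at 33310001–33311000 inside it, with a 600 mM ratio of 3.0006 and 26 reads of the 5hmC antibody, and a bin on chromosome 5 at 116319001–116320000, with an 800 mM ratio of 3.002 and 54 reads of the 5hmC antibody. The nearest outside were on chromosome 17 at 87877001–87878000 and chromosome 3 at 131041001–131042000, both with an 800 mM ratio of 2.98 and with 38 and 9 reads of the 5hmC antibody.

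The 5hmC antibody, which the rule did not use, was above input in the sum over the 749 bins. Its 12979 reads were 2.55-fold over input (2.47 to 2.63). The same sum was 1.03-fold over all covered bins, 3.61-fold (3.59 to 3.63) over captured bins with a 5mC antibody ratio of 1 to 3 and 6.61-fold (6.56 to 6.65) over those with a ratio of 3 or more. The intervals of the 4 values did not overlap. The 749 bins thus lay above the genome as a whole and below the other captured bins in this measure. The same input reads sorted the bins by 5mC antibody ratio and scaled the 5hmC antibody, which may widen the gaps between classes. When the bins were called with the input reads at even coordinates and measured over the odd ones, the 5hmC antibody was at 2.37-fold (2.28 to 2.47), and the captured bins with a 5mC antibody ratio of 3 or more were at 4.68-fold (4.65 to 4.71). This was not measured for captured bins with a ratio of 1 to 3.

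Counted bin by bin, 61 of the 749 (8.14%, 6.29 to 10.3%) had a 5hmC antibody ratio of 3 or more, against 2.04% of all covered bins. The share was 14.0% among captured bins with a 5mC antibody ratio of 1 to 3 and 33.0% among those with 3 or more. Below input with the 5hmC antibody were 164 bins (21.9%, 18.98 to 25.03%), against 58.8% of all covered bins, 8.08% of captured bins with a 5mC antibody ratio of 1 to 3 and 1.77% of those with 3 or more. The interval of the raw 5hmC antibody ratio lay wholly above the input level in 307 of the 749 bins (41.0%), against 12.0% of all covered bins, and wholly below it in 15 (2.00%), against 16.6% of all covered bins and 0.131% and 0.0205% of captured bins with a 5mC antibody ratio of 1 to 3 and of 3 or more. The median ratio was 1.41, against 0.881 over all covered bins. It was 1.68 over captured bins with a 5mC antibody ratio of 1 to 3 and 2.34 over those with 3 or more.

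**Figure D1:**
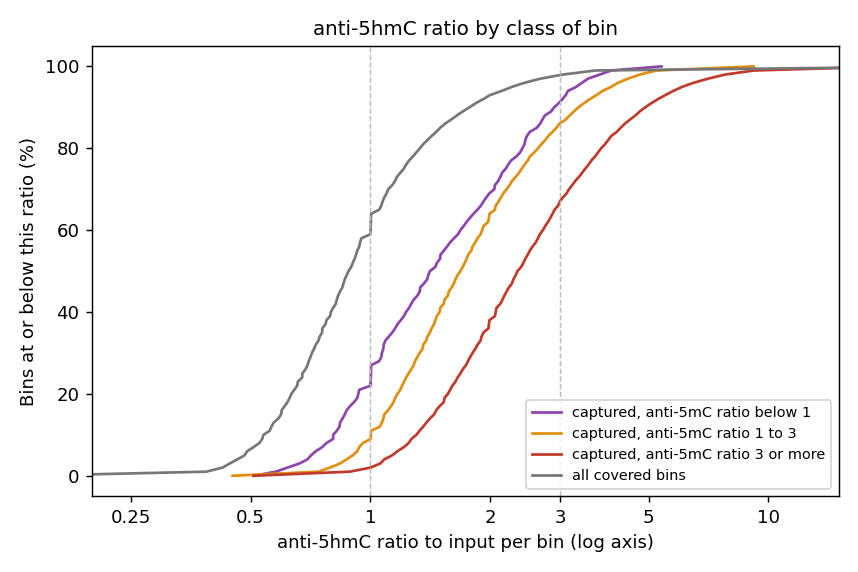
Cumulative share of bins (vertical axis, percent) against the 5hmC antibody ratio to input per bin (horizontal log axis), with a line for each class of bin. Between ratios of 1 and 3, the line of the 749 bins runs between all covered bins and the other captured bins. It has a median of 1.41, and dashed lines mark ratios of 1 and 3.

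The order of the classes was the same at each depth of the input. In bins with 6 to 9 input reads, the 5hmC antibody was at 2.47-fold (2.36 to 2.59) over 356 of the 749 bins and at 5.00-fold (4.95 to 5.05) over captured bins with a 5mC antibody ratio of 3 or more. In bins with 10 or more input reads the values were 2.13-fold (2.00 to 2.27) over 121 bins and 4.25-fold (4.17 to 4.34). With 1 or 2 input reads they were 4.51-fold (3.66 to 5.61) over 60 bins and 14.3-fold (13.9 to 14.6). Captured bins with a 5mC antibody ratio of 1 to 3 lay closer to the 749. They were at 7.75-fold (7.57 to 7.94) with 1 or 2 input reads. With 6 to 9 they were at 3.14-fold (3.11 to 3.17), and with 10 or more at 2.43-fold (2.39 to 2.46). Folds were larger in each class where the input was sparse. The 749 bins made up 3.63% of captured bins with 10 or more input reads and 0.615% of those with 1 or 2. With few input reads, a bin falls below the 5mC limit only if it holds very few 5mC antibody reads. The rule itself thus ties these shares to input depth. A bin with no input read could not be chosen, since its 5mC antibody ratio cannot fall below 1.

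Signal around the bins was raised in all 4 enriched libraries. In the 5902 bins 2 to 5 kb away that were not themselves among the 749, the 5mC antibody was at 1.86-fold over input (1.83 to 1.88), the 5hmC antibody at 1.81-fold (1.79 to 1.83), the 600 mM eluate at 2.46-fold and the 800 mM eluate at 2.45-fold. Around captured bins with a 5mC antibody ratio of 3 or more, the 5mC antibody was at 1.85-fold in the flanks and the 5hmC antibody at 1.79-fold, and the eluates were at 2.32-fold and 2.42-fold. Flanks leave out the bins of their own class alone, so those of the 749 still held bins with a high 5mC antibody ratio. Over bins within 50 kb that were not captured, which leave out all classes alike, the 5mC antibody was at 1.35-fold around the 749 and at 1.34-fold around the captured bins with a ratio of 3 or more. The 5hmC antibody was at 1.46-fold and 1.37-fold there. In each case the intervals did not overlap. In the adjoining bin on either side the 5mC antibody stood at 1.87-fold and 1.98-fold, the 5hmC antibody at 1.96-fold and 2.08-fold, and the 600 mM eluate at 3.32-fold and 3.39-fold. From there into the chosen bin the 5hmC antibody rose to 2.55-fold, whereas the 5mC antibody was chosen to be low there. The rule also used the input of the chosen bin, and the part of this in the rise was not tested. Among the 749, the 5hmC antibody was at 2.13-fold with 10 or more input reads and at 4.51-fold with 1 or 2. Adjoining bins were not split by input depth.

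**Figure D2:**
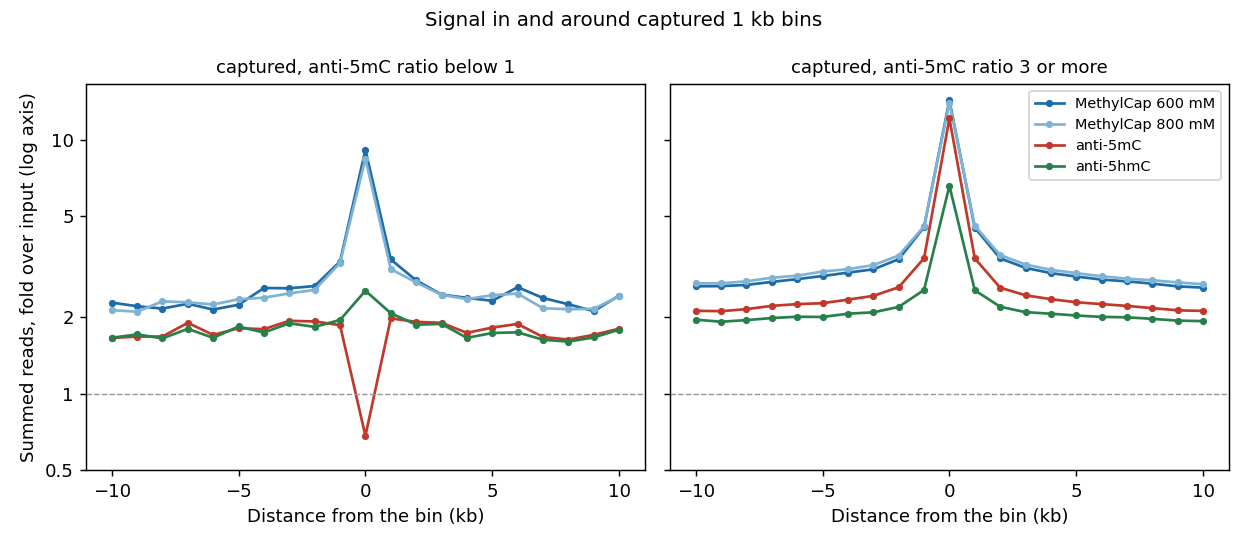
Summed reads as fold over input (vertical log axis) by distance in kb from the chosen bin, for the 749 bins (left) and for captured bins with a 5mC antibody ratio of 3 or more (right), with a line per library; neighbours that are captured themselves are included. On the left the 5mC antibody was at 0.683-fold in the bin, where the rule set it, and at 1.87-fold and 1.98-fold in the adjoining ones. The 5hmC antibody peaked at 2.55-fold, over an input that the rule also used.

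The 749 bins formed 737 single bins and 6 pairs, with a median of 1243 kb between neighbours on a chromosome. Next to another captured bin lay 175 (23.4%, 20.4 to 26.6%), against 29.5% of captured bins with a 5mC antibody ratio of 1 to 3 and 37.5% of those with 3 or more. Next to a bin enriched 3-fold or more with the 5mC antibody lay 107 (14.3%), against 22.8% and 33.1%. Next to a bin enriched 3-fold or more with the 5hmC antibody lay 110 (14.7%, 12.2 to 17.4%), an interval that included the 15.2% of captured bins with a 5mC antibody ratio of 1 to 3, and the share of those with 3 or more was 19.6%. Shares of neighbours were not counted over all covered bins, so they compare captured bins only. The pair with the most 5hmC antibody signal among the first 5 of the 6 in genome order was on chromosome 5 at 140075001–140077000, with 42 reads at 600 mM, 30 at 800 mM, 2 of the 5mC antibody, 50 of the 5hmC antibody and 6 of the input. Its 5hmC antibody signal was 8.40-fold over input. The other 4 of these pairs were at 0.807-fold to 1.40-fold. They lay on chromosome 2 at 49555001–49557000 and 172461001–172463000, on chromosome 4 at 12040001–12042000 and on chromosome 8 at 96439001–96441000.

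All 19 autosomes held such bins, from 19 on each of chromosomes 14, 16 and 19 to 67 on each of chromosomes 2 and 4. Per 10000 covered bins there were 3.26, from 1.69 on chromosome 14 (1.02 to 2.64) to 5.31 on chromosome 8 (4.09 to 6.78). As a share of the captured bins of a chromosome they ranged less, from 1.03% on chromosome 15 to 1.59% on chromosome 2. The 5hmC antibody was above input in them on each autosome, from 1.71-fold on chromosome 16 to 3.14-fold on chromosome 13. The first 5 Mb of sequence of the chromosomes, next to the centromere, held 31 bins (4.14%, 2.83 to 5.82%), and this interval included the 3.76% of all covered bins found there. It overlapped that of captured bins with a 5mC antibody ratio of 3 or more, 2.66% (2.46 to 2.87%). The last 5 Mb held 48 bins (6.41%, 4.76 to 8.41%), against 4.00% of covered bins and 8.22% of captured bins with a 5mC antibody ratio of 3 or more. No gene model of mm9 was used here, so the bins carry no gene annotation, and no sequence is printed.

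**Figure D3:**
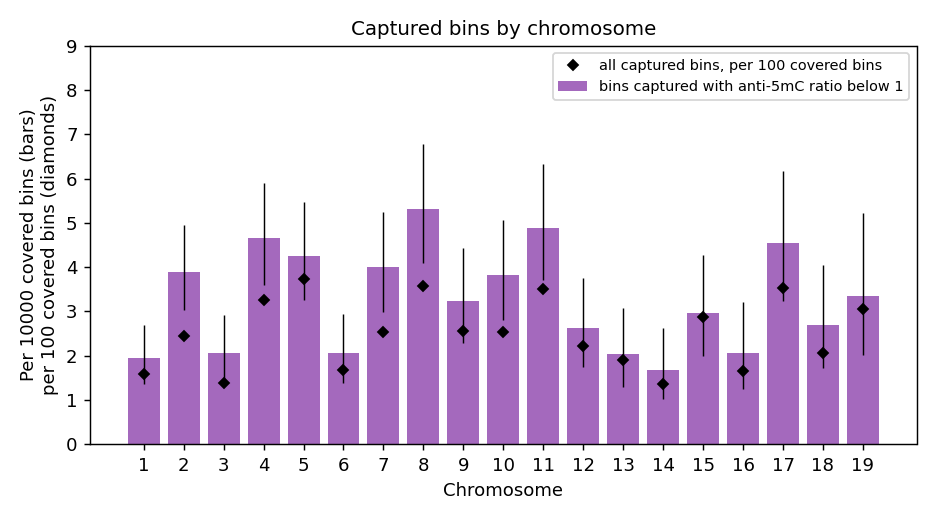
Bars show the 749 bins per 10000 covered bins of each autosome with exact 95% intervals, and diamonds all captured bins per 100 covered bins. The bars run from 1.69 on chromosome 14 to 5.31 on chromosome 8 around 3.26 over all autosomes.

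Among the bins with the strongest capture, the 5hmC antibody ranged from 1 to 60 reads per bin. Of the 10 bins with the highest ratio in the weaker of the eluates, with at least 5 input reads and 20 reads in each eluate, 4 were below input with the 5hmC antibody, 5 between 1 and 3, and 1 above 3. Below input with this antibody were 58.8% of all covered bins and 21.9% of the 749. The first was on chromosome 18 at 22512001–22513000, with 343 reads at 600 mM, 154 at 800 mM, 2 of the 5mC antibody, 1 of the 5hmC antibody and 11 of the input. Its ratios were 30.6 at 600 mM and 19.3 at 800 mM, and the interval of its raw 5hmC antibody ratio, 0.0021 to 0.631, lay below the input level. The second, on chromosome 6 at 7733001–7734000, held 107 and 137 eluate reads, none of the 5mC antibody, 1 of the 5hmC antibody and 5 of the input. A bin on chromosome 2 at 170884001–170885000 held 143 and 69 eluate reads, with 2 reads of each antibody against 8 of the input.

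A bin on chromosome 11 at 110083001–110084000 had 87 and 49 eluate reads, 2 of the 5mC antibody and 1 of the 5hmC antibody against 8 of the input. In these 4 bins each antibody gave at most 2 reads beside at least 49 in each eluate. The interval of the raw 5mC antibody ratio included the input level in all 4. That of the 5hmC antibody included it in the bins on chromosome 6 at 7733001–7734000 and chromosome 2 at 170884001–170885000. The other 6 carried 5hmC antibody reads. The bin on chromosome 15 at 76684001–76685000 held 60, against 5 of the 5mC antibody and 11 of the input (ratio 3.43), and the bin on chromosome 5 at 140061001–140062000 held 41, against 3 and 11 (2.49). Bins on chromosome 6 at 149302001–149303000, chromosome 10 at 79440001–79441000, chromosome 18 at 37812001–37813000 and chromosome 2 at 172461001–172462000 were at 1.95, 2.06, 1.59 and 1.27. In the last pair the interval of the raw ratio included the input level.

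The 5 bins with the highest 5hmC antibody ratio, given 20 reads of that antibody and 5 of the input as a minimum, had eluate ratios of 3.52 to 6.03. The bin on chromosome 5 at 136385001–136386000 held 64 reads of the 5hmC antibody, 2 of the 5mC antibody, 6 of the input and 40 and 29 of the 600 mM and 800 mM eluates. Its 5hmC antibody ratio was 4.82, with a raw interval of 4.68 to 30.4. Next were bins on chromosome 1 at 38266001–38267000, with 55 reads of the 5hmC antibody and 1 of the 5mC antibody (4.52), and on chromosome 5 at 116316001–116317000, with 51 and 2 (4.24). The last of the 5 were on chromosome 17 at 30937001–30938000, with 76 and 3 (4.23), and chromosome 12 at 109250001–109251000, with 55 and 3 (4.22). Over the 61 bins with a 5hmC antibody ratio of 3 or more, the flanks at 2 to 5 kb were at 2.06-fold with the 5mC antibody and 2.12-fold with the 5hmC antibody. Over the 164 bins below input with the 5hmC antibody the flanks were at 1.73-fold and 1.42-fold.

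**Figure D4:**
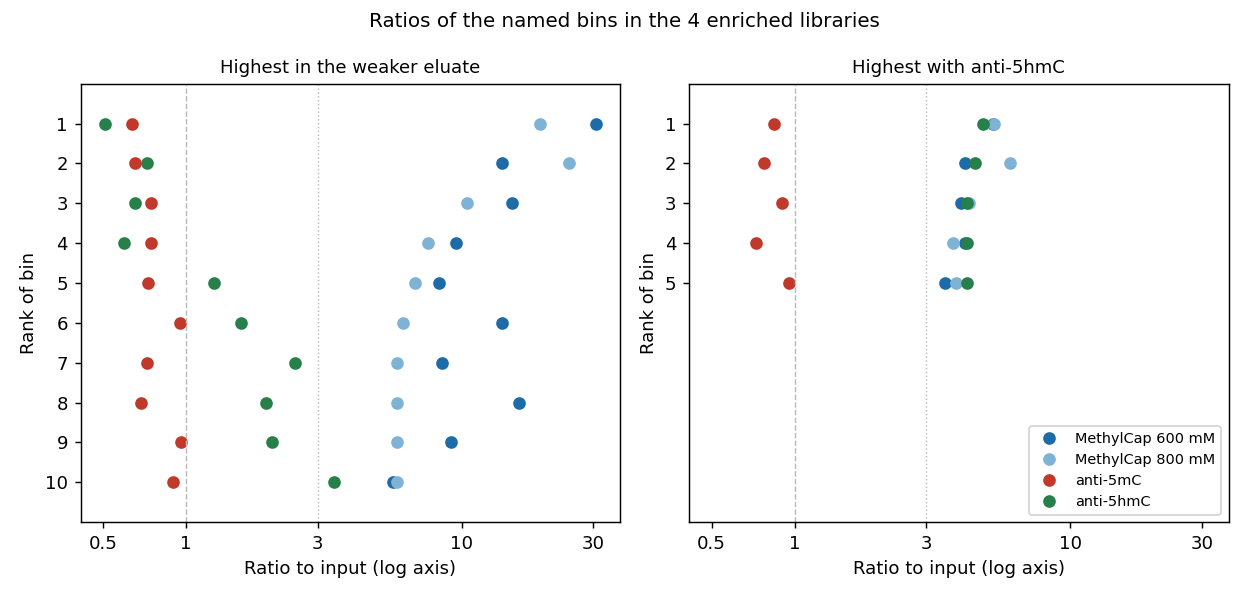
Ratio to input (horizontal log axis) in each enriched library, 1 row per bin, for the 10 bins with the highest ratio in the weaker eluate (left) and the 5 with the highest 5hmC antibody ratio (right). On the left the first 4 bins have both antibodies below 1; on the right the 5hmC antibody ratios of 4.22 to 4.82 lie beside those of the eluates.

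In a small number of the 749 bins the captured reads lay on 1 strand. Of the 671 with at least 20 reads at 600 mM, 23 (3.43%, 2.19 to 5.10%) had 90% or more of them on 1 strand, against 0.702% of all covered bins with as many reads, 0.570% of captured bins with a 5mC antibody ratio of 1 to 3 and 0.197% (0.142 to 0.267%) of those with 3 or more. At 800 mM it was 5 of 410 (1.22%, 0.397 to 2.82%), against 0.0867%, 0.0939% and 0.0437%. Of the 23, 10 were on the plus and 13 on the minus strand, and in 13 at least 90% of the 800 mM reads were on the same strand as those of the 600 mM eluate. The middle 50% of the 600 mM reads in these bins spanned a median of 69 bp (24 to 311), against 299.8 bp over all 671. Over the 3 kb around the bin, 8 were at 90% or more on 1 strand, and the other 15 were at 50.96% to 89.55%.

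The clearest case was on chromosome 14 at 15914001–15915000. It held 117 minus and 4 plus reads at 600 mM, 77 minus and no plus reads at 800 mM, 3 of the 5hmC antibody, none of the 5mC antibody and 2 of the input. On chromosome 1 at 30787001–30788000, all 23 reads at 600 mM and all 12 at 800 mM were on the plus strand, also over the 3 kb around it. By contrast, the bin on chromosome 10 at 112223001–112224000 held 43 minus and no plus reads at 600 mM, but the 3 kb around it held 62 minus and 49 plus reads, with 58 plus and 6 minus reads of the 5mC antibody. These 3 were picked after their values were seen. Of the 23 bins, 16 were below input with the 5hmC antibody, against 58.8% of all covered bins and 21.9% of the 749. Other bins with reads on 1 strand were not counted in this way. The 23 held 109 reads of the 5hmC antibody, 0.833-fold of input (0.640 to 1.08), and this interval included the input level. Without the 23, the 5hmC antibody was at 2.59-fold over the other 726 bins.

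The deposited column 4 holds 0 or 1 for each read. No source used here says what it stands for, and it was 0 for every read of both antibody libraries. In the 749 bins it was 1 for 2302 of 26339 reads at 600 mM (8.74%, 8.40 to 9.09%), against 7.85% of all autosomal reads of that eluate. At 800 mM it was 8.38% (7.97 to 8.80%), against 8.14%, and in the input 9.27% (8.49 to 10.1%), against 8.45%. Only the 600 mM interval in the 749 bins lay wholly above both the share of all autosomal reads and that of captured bins with a 5mC antibody ratio of 3 or more, 7.65%. In captured bins with a 5mC antibody ratio of 1 to 3 the 600 mM share was 8.09%. These intervals treat reads as independent, although reads with a 1 gathered in some bins, so they may be too narrow. With at most 1 read per position and strand, the 600 mM share was 6.98% (6.67 to 7.30%) over 750 bins, an interval that included the 6.82% of all covered bins and lay above the 6.23% of captured bins with a 5mC antibody ratio of 3 or more. In the input, captured bins with a ratio of 1 to 3 were at 9.97% and those with 3 or more at 9.26%, both within the interval of the 749. Bins dominated by such reads were rare: of the 671 bins with at least 20 reads at 600 mM, 72 (10.7%) had 20% or more of them and 4 had 50% or more, against 10.5% and 0.760% of all covered bins and 9.48% and 0.564% of captured bins with a 5mC antibody ratio of 3 or more. The 749 bins were thus near the background in both.

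The highest share was on chromosome 8 at 87635001–87636000, where 40 of 50 reads at 600 mM and 14 of 19 at 800 mM had a 1 in column 4, but none of the 8 input reads. It was also among the 23 bins with reads on 1 strand, with 48 of the 50 on the plus strand. It was followed by bins on chromosome 13 at 96771001–96772000 (58.6% of 87 reads), chromosome 7 at 71231001–71232000 (54.2% of 24), chromosome 4 at 140556001–140557000 (51.9% of 52) and chromosome 10 at 62884001–62885000 (49.3% of 73). When all reads with a 1 in column 4 were left out, 854 bins met the rule, 573 of them among the 749, and the 5hmC antibody was at 2.47-fold over the 854.

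**Figure D5:**
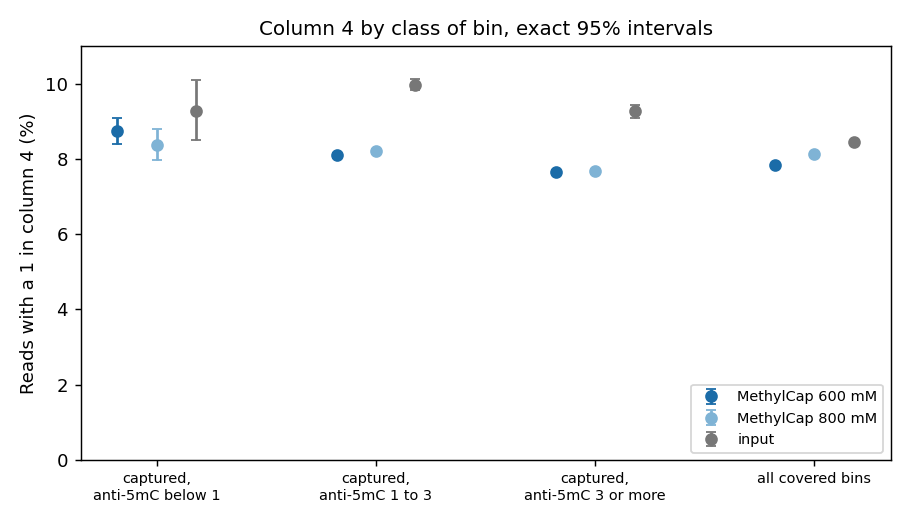
Percent of reads with a 1 in column 4 (vertical axis) in the 600 mM eluate, the 800 mM eluate and the input, by class of bin, with exact 95% intervals. The 749 bins were at 8.74%, 8.38% and 9.27%, next to 7.85%, 8.14% and 8.45% over all covered bins.

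A pair of bins with large counts stood outside the rule for named bins and were picked after their values were seen. On chromosome 4 at 118809001–118810000 the 800 mM eluate held 506 reads and the 600 mM eluate 31, with 2 of the 5mC antibody, 16 of the 5hmC antibody and 8 of the input. On chromosome 11 at 3032001–3033000, within the first 5 Mb of sequence, the input held 136 reads, the 600 mM eluate 310, the 800 mM eluate 235, the 5mC antibody 64 and the 5hmC antibody 82. There the 5hmC antibody ratio was 0.633, and its raw interval of 0.457 to 0.806 lay below the input level.

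The number of bins changed with the pseudocount, from 88 at 1 RPM to 7485 at 0.1 RPM, and with the thresholds. It was 32 with an eluate ratio of 5 or more and 2 with a 5mC antibody ratio below 0.5. Setting the median ratio of each library to 1 gave 1381 bins, of which 206 were among the 749.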

How the data were processed

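DNA of mouse embryonic stem cells was sequenced in 5 libraries, 1 per group, without replicates. The submitters' processing notes name BWA 0.5.8 and the mm9 build. The deposited files list 1 read of 35 bp per line, and the deposited count in column 5 was 1 in every line. No position and strand was repeated in the antibody and input files, which caps their counts in dense bins, whereas the MethylCap files repeat 115301 (600 mM) and 99711 (800 mM) reads. How repeats were treated by the authors, and what column 4 (0 or 1) means, no source used here states.

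Reads were assigned by midpoint to 1 kb bins. Ratios per bin have a pseudocount of 0.5 RPM, and folds are ratios of summed reads scaled to depth, without a pseudocount. Intervals are exact (Clopper-Pearson, on the conditional binomial for folds) and cover counting error only: without molecular identifiers, reads are no independent molecules. Alternatives changed the pseudocount, bin size and position, thresholds, scaling and the reads used. The rule was tested on simulated data in which captured bins had a 5mC antibody fold set well below or well above input. Captured bins with a fold near the input level were not simulated. Named bins were the 10 with the highest ratio in the weaker eluate (at least 5 input and 20 eluate reads), the 5 with the highest 5hmC antibody ratio, the longest runs, the 5 with the highest share of 1 in column 4 and those nearest to the limits. The bins, classes and rules were chosen with earlier results of these data known. The strand and read-width comparisons and the classes by 5hmC antibody ratio were added after the data were seen. Python 3.11.15, numpy 2.4.6, pandas 2.3.3 and scipy 1.17.1 were used.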

Additional observations from a re-analysis of the deposited data

How the results depend on the processing

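With 1 library per group, no result has a replicate check, and a median of 6 input and 2 5mC antibody reads limits what a single bin shows. No paired analysis was possible because each group has 1 library. The values below are, in this order where they left their 95% interval (for the number of bins, moved by over 1.5 times), the number of bins, the 5hmC antibody fold, the share of bins at 3-fold or more with it, the 600 mM share of 1 in column 4, the share in the first 5 Mb and the 5mC antibody fold in the flanks. With a pseudocount of 0.1 RPM they were 7485 bins, 2.12-fold, 17.5%, 8.19% for column 4 and 1.68-fold in the flanks, and with 1 RPM 88 bins, 2.46-fold, 3.41%, 10.2% and 6.82% in the first 5 Mb. Bins of 500 bp gave 2.75-fold, 3.05% and 9.30% for column 4, and bins of 2 kb gave 316 bins, 2.13-fold, 10.4%, 10.5%, 6.96% and 1.66-fold. Bins shifted by 500 bp gave 2.41-fold and 9.20% for column 4, and a minimum of 5 input reads gave 2.42-fold. An eluate ratio of 5 or more left 32 bins, with 3.79-fold, 21.9%, 10.6% and 1.74-fold. A 5mC antibody ratio below 0.5 left 2 bins. Over these 2 the 5hmC antibody was at 0.776-fold (0.411 to 1.44) and the flanks at 0.823-fold (0.617 to 1.09), and both intervals included the input level. Of the 2 bins 0% were at 3-fold or more, 13.1% of their reads had a 1 in column 4 and 0% lay in the first 5 Mb. With the median ratio set to 1 there were 1381 bins, with 2.32-fold, 2.75% in the first 5 Mb and 2.04-fold in the flanks. At most 1 read per position and strand gave 6.98% for column 4, an interval that then included the share of all covered bins, 6.82%. Calling with the even input reads gave 2.37-fold, 9.20% for column 4 and 1.83-fold in the flanks. Calling with the even 5mC antibody and input reads gave 1559 bins, 11.5% at 3-fold or more and 1.95-fold in the flanks, and the 5mC antibody was at 1.83-fold in these bins, against 0.683-fold in the 749. That setting and the removal of bins with reads on 1 strand were chosen after seeing the data. Except where fewer bins or other reads are the setting itself, the cause was not tested. Of the other values of these 6 results, 39 stayed.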

Other observations

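Chromosome X was outside the rule. Of its 142638 covered bins, 164 were at 3 or more in both eluates, and 8 of these were below input with the 5mC antibody. On the autosomes 56461 of 2297452 covered bins (2.46%) passed in both eluates, and 749 of these (1.33%) were below input. The share of all chromosome X bins below input with the 5mC antibody was not counted. The 8 bins held 45 reads of the 5hmC antibody and 33 of the input, 1.38-fold over input (0.858 to 2.22), and this interval included the input level. In them 7.19% of the 600 mM reads had a 1 in column 4.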
